A study of Mus musculus with 8 samples.

Results

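The nuclear receptors CAR and PXR were followed here with their cytochrome P450 targets in mouse liver RNA-seq: CAR is the product of Nr1i3, PXR of Nr1i2, and the targets were Cyp2b9, Cyp2b10, Cyp2b13 and Cyp3a11, together with Por. These 7 genes were picked by symbol from the 22946 rows of the deposited count table. Each had a row of its own, none of the rows was merged with another gene, and all 7 passed the filter on low counts. Por encodes the reductase that hands electrons from NADPH to the microsomal P450 enzymes. In GRCm38, Nr1i3 lies on chromosome 1, Nr1i2 on chromosome 16, the Cyp2b genes on chromosome 7, and Cyp3a11 and Por on chromosome 5.

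CAR and PXR sense foreign chemicals, steroids and bile acids, and bind DNA as heterodimers with the retinoid X receptor. CAR is held in the hepatocyte cytoplasm by a chaperone complex until an activator releases it, and PXR binds its ligands directly. In mouse liver, Cyp2b10 is the usual readout of CAR and Cyp3a11 that of PXR, although each receptor can act on the targets of the other. Cyp2b9 and Cyp2b13 are known as female-predominant genes of mouse liver.

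The study set livers of mice heterozygous by label for MLL4, the histone H3 lysine methyltransferase encoded by Kmt2d, against wild-type livers, on a high-fat diet (HFD) or on chow. The 4 groups were MLL4 het-labelled livers on HFD (libraries 7 and 8), MLL4 het-labelled livers on chow (libraries 3 and 4), wild-type livers on HFD (libraries 5 and 6) and wild-type livers on chow (libraries 1 and 2). All mice were of the strain C57 Black and started their diet at 8 weeks of age, and each diet lasted 8 weeks. The labels gave neither the kind of Kmt2d allele nor the animal behind each library, and the spread that each p-value is measured against is therefore that of these libraries and may be partly technical.

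Library totals ran from 14142884 to 18928676 counts, and 3 counts amounted to 0.161 to 0.213 counts per 1000000 (CPM). Kmt2d, listed under its older symbol Mll2, had 62.8 and 75.4 CPM in het-labelled livers on HFD, 60.0 and 72.1 CPM in het-labelled livers on chow, 63.3 and 64.7 CPM in wild-type livers on HFD and 61.2 and 69.6 CPM in wild-type livers on chow. These levels overlapped, so Kmt2d counts did not separate the labelled genotypes, and the libraries are called het-labelled throughout; counts over the whole gene need not show a deletion of part of it. Hepatocyte markers were abundant in every library, with summed levels of 81942 to 101867 CPM. The Y-linked genes Ddx3y, Eif2s3y, Kdm5d and Uty were detected in every library, with Ddx3y between 60.1 and 78.3 CPM, and Xist stayed between 0.0536 and 0.492 CPM.

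The promoters of the 4 P450 genes are shown because the sequences of Cyp2b9 and Cyp2b13 were near-identical here, while that of Cyp2b10 was not. Each window is a RefSeq sequence of GRCm38.p6, 250 bases before to 50 bases after the gene's start, written 5′ to 3′ on the gene's strand. The windows were chr7:26173159-26173458 on the plus strand for Cyp2b9, chr7:26061245-26061544 on the plus strand for Cyp2b13, chr7:25897408-25897707 on the plus strand for Cyp2b10 and chr5:145879805-145880104 on the minus strand for Cyp3a11. Capitals mark the 2 bases that differ between Cyp2b9 and Cyp2b13, and in Cyp3a11 they mark matches to the searched hexamers; the Cyp2b10 window has no capitals.
Cyp2b9: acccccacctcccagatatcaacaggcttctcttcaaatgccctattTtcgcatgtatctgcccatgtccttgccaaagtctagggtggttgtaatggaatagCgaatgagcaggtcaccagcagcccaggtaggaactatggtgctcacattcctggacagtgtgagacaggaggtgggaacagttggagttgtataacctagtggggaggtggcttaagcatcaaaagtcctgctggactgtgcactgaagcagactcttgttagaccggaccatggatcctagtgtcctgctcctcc
Cyp2b13: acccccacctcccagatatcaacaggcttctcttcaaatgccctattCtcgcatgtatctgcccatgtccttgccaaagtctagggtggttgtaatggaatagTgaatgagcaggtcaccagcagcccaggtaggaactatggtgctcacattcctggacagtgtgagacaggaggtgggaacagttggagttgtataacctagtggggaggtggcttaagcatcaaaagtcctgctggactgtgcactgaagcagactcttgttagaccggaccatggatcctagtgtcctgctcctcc
Cyp2b10: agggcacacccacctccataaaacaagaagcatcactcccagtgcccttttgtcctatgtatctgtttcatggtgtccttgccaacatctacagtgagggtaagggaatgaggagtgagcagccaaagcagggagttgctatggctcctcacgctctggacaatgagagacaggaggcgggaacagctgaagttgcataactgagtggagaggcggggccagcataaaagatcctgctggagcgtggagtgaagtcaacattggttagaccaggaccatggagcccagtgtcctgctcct
Cyp3a11: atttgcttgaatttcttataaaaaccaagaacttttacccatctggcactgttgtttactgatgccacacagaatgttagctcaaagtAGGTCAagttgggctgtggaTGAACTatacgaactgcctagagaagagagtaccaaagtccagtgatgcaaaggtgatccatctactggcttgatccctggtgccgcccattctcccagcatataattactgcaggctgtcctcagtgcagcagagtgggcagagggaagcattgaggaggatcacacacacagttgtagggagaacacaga

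The Cyp2b9 and Cyp2b13 windows were identical at 298 of 300 bases (99.3%). The Cyp2b10 window aligned to either with 71.7% identity. The hexamers AGGTCA and AGTTCA, core motifs that receptors partnered with the retinoid X receptor bind in pairs, were searched on both strands; they do not overlap each other in these windows. AGGTCA occurred in 16.3% and AGTTCA in 14.0% of 32851 RefSeq promoters of the same length. Cyp2b9 and Cyp2b13 each held AGGTCA at -138 from the start on the plus strand. Cyp3a11 held AGGTCA at -162 on its own strand and AGTTCA at -142 on the opposite strand. Neither hexamer was found in the windows of Cyp2b10, Nr1i3, Nr1i2 or Por. A match is a description of the letters in the window and shows no binding. Sequence outside the windows was not searched, so a missing match says nothing about receptor sites elsewhere near a gene.

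No difference in the RNA of CAR itself was called with all libraries and groups in the fit. Nr1i3 had 99.2 and 51.7 CPM in het-labelled livers on HFD, 64.2 and 85.8 CPM in het-labelled livers on chow, 80.1 and 76.3 CPM in wild-type livers on HFD and 106.0 and 90.7 CPM in wild-type livers on chow. Wild-type chow libraries were high, but library 7 lay between them, and the widest gap was between the 2 het-labelled HFD libraries. The log2 difference of HFD minus chow was 0.01 in het-labelled livers (95% interval -0.58 to 0.60) and -0.33 in wild-type livers (-0.91 to 0.26), with adjusted p of 0.99 and 0.551 by edgeR's quasi-likelihood test with Benjamini-Hochberg adjustment over all 12593 tested rows. This test is meant by every adjusted p below unless another tool is named, and a gene was called where its adjusted p was under 0.05. In a fit of the wild-type libraries alone, Nr1i3 was called on the diet (-0.35, adjusted p = 0.0498 by edgeR).

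PXR RNA was lower in het-labelled livers when both diets were averaged. Nr1i2 had 60.3 and 51.3 CPM in het-labelled livers on HFD, 40.7 and 48.3 CPM in het-labelled livers on chow, 63.3 and 77.1 CPM in wild-type livers on HFD and 67.5 and 72.4 CPM in wild-type livers on chow. Every het-labelled library was below every wild-type library. The log2 difference of het-labelled minus wild-type, averaged over the diets, was -0.49 ± 0.09 (SE; 1.41-fold lower; adjusted p = 0.0325 by edgeR). On chow alone it was -0.65 ± 0.13, which missed the threshold (adjusted p = 0.075 by edgeR) and passed it with DESeq2 (adjusted p = 0.00455), without the filter on low counts (0.0177 by edgeR) and without library 4 (-0.79, 0.0442 by edgeR). On HFD alone it was -0.33 ± 0.13 (adjusted p = 0.318 by edgeR). The averaged call ended when library 1, 2, 3, 5, 6 or 8 was left out, with adjusted p of up to 0.142. The diet difference of Nr1i2 was 0.33 in het-labelled livers (interval 0.02 to 0.63, adjusted p = 0.238) and 0.01 in wild-type livers (interval -0.29 to 0.30, adjusted p = 0.988, both by edgeR).

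**Figure D1:**
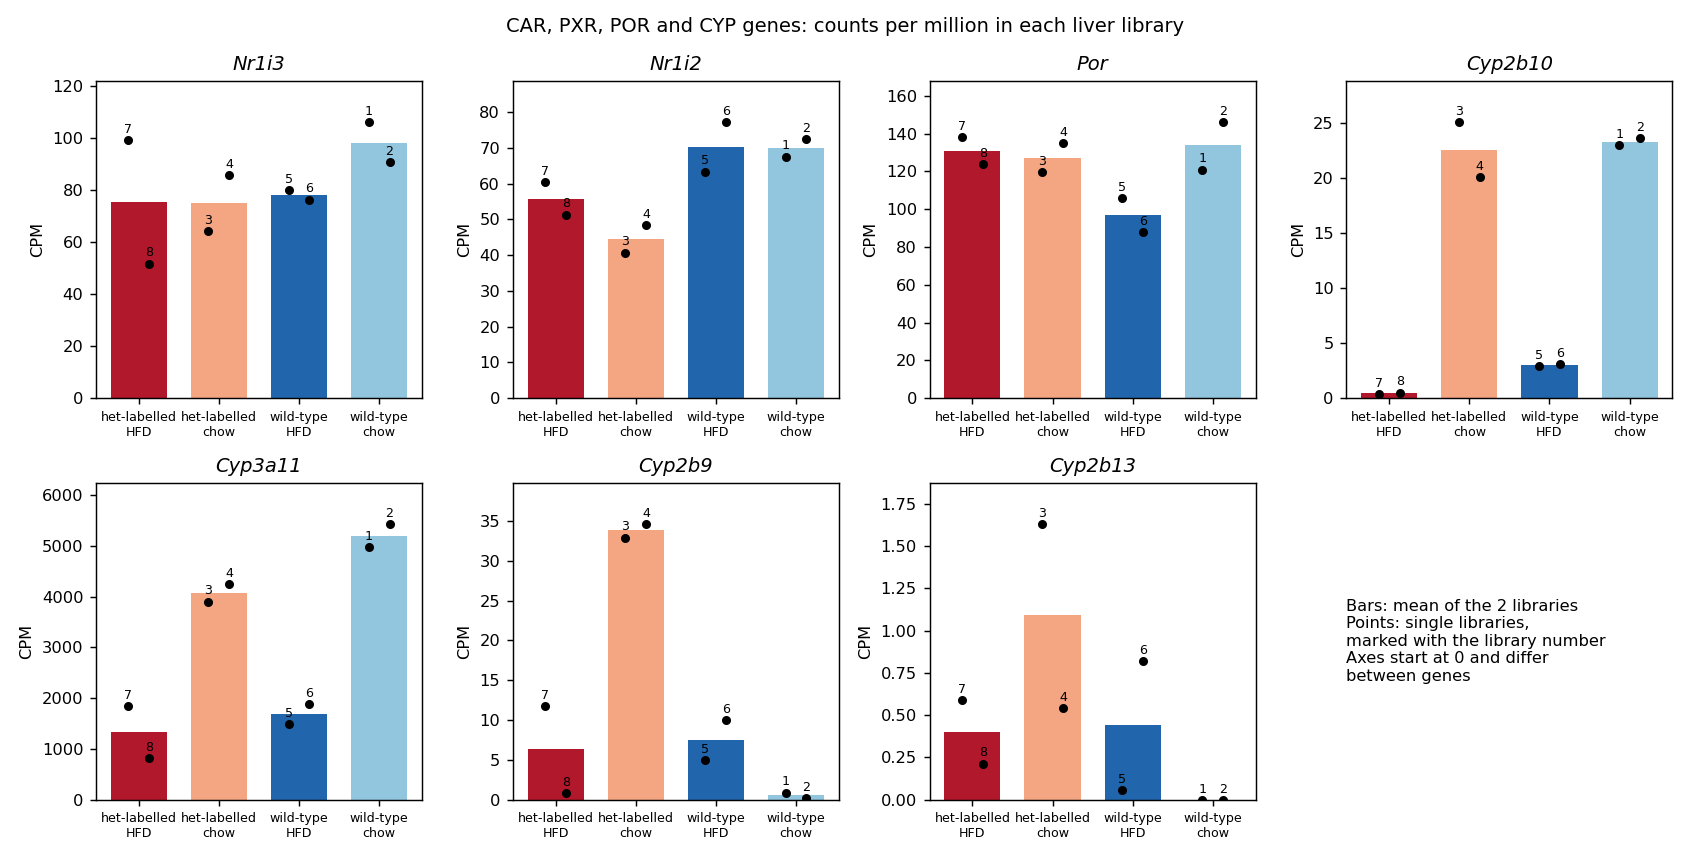
CPM (vertical axes, starting at 0 and differing between genes) of the 7 genes in the 4 groups; bars are means of 2 libraries and points are single libraries marked with their number. Cyp2b10 and Cyp3a11 are low on HFD in both genotypes, and Cyp2b9 is highest in the het-labelled chow libraries at 32.9 and 34.6 CPM.

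Cyp2b10, the P450 gene by which CAR activity is usually read in mouse liver, fell on HFD in both genotypes, and fell further in het-labelled livers. It had 0.376 and 0.498 CPM in het-labelled livers on HFD, which were 7 counts in each library, and 25.1 and 20.1 CPM in het-labelled livers on chow. Wild-type livers had 2.89 and 3.12 CPM on HFD and 23.0 and 23.7 CPM on chow. The HFD and chow libraries did not overlap in either genotype, and the het-labelled HFD libraries lay below the wild-type HFD libraries, while the chow groups overlapped. HFD minus chow was -5.69 ± 0.22 in het-labelled livers (SE, log2; 51.7-fold lower; adjusted p = 7.5e-06 by edgeR) and -2.95 ± 0.16 in wild-type livers (7.75-fold lower; adjusted p = 0.000123 by edgeR). In bulk liver, fewer cells of a type and less RNA per cell cannot be told apart.

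Het-labelled and wild-type livers differed in Cyp2b10 on HFD, by -2.79 ± 0.27 on the log2 scale (6.9-fold lower in het-labelled livers; adjusted p = 0.00636 by edgeR). On chow the difference was -0.05, with an interval of -0.34 to 0.25 (adjusted p = 0.899 by edgeR). Both diet calls and the call on HFD held with each of the 8 libraries left out in turn. The difference between the 2 diet responses was -2.74 ± 0.31 (unadjusted p = 1.08e-05, adjusted p = 0.0963 by edgeR) and passed with DESeq2 (adjusted p = 0.000132), without the filter on low counts (0.00449 by edgeR) and without library 4 (0.0348 by edgeR). In the same comparison on HFD, red blood cell markers had summed levels of 467 to 499 CPM in het-labelled livers and 888 to 1143 CPM in wild-type livers. Of 4 tested markers, 0 were higher and 2 lower, beside 0.0953% of all rows higher and 0.349% lower. The lower count fell when library 1, 2, 5, 6, 7 or 8 was left out. The part of these markers in the Cyp2b10 difference was not tested.

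Cyp3a11, the usual PXR target in mouse liver, also fell on HFD, by a similar fold in both genotypes. It had 1838 and 818 CPM in het-labelled livers on HFD and 3902 and 4243 CPM in het-labelled livers on chow. Wild-type livers had 1490 and 1877 CPM on HFD and 4978 and 5432 CPM on chow. Every HFD library was below every chow library, and library 8 was the lowest. HFD minus chow was -1.62 ± 0.31 in het-labelled livers (SE, log2; 3.07-fold lower; adjusted p = 0.0316 by edgeR) and -1.63 ± 0.31 in wild-type livers (3.09-fold lower; adjusted p = 0.0236 by edgeR). The difference between the responses was 0.01, with an interval of -0.96 to 0.98 (adjusted p = 0.996 by edgeR).

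The Cyp3a11 call within het-labelled livers ended without library 1, 2, 3 or 4 (adjusted p of 0.0605 to 0.0763 by edgeR) and in a fit of the het-labelled libraries alone (0.0969). Within wild-type livers it ended without library 1, 2, 5 or 6 (0.0961 to 0.152). Averaged over the genotypes, the diet difference of -1.62 ± 0.22 (adjusted p = 0.00289 by edgeR) was called in all 8 such fits. Het-labelled minus wild-type was -0.34 on HFD (adjusted p = 0.674) and -0.35 on chow (adjusted p = 0.623, both by edgeR). Without library 7 the difference on HFD was -1.04 and was called (adjusted p = 0.0306 by edgeR), and so was the one averaged over the diets (-0.70, adjusted p = 0.015; -0.35 with all libraries).

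Hepatocyte markers also had lower summed levels on HFD, at 81942 to 84455 CPM against 93323 to 99014 CPM on chow in het-labelled livers. In wild-type livers they summed to 83010 to 84535 CPM against 95308 to 101867 CPM on chow. Alb made up the largest part of these sums, with means of 47252 CPM on HFD against 59389 CPM on chow in het-labelled livers. In wild-type livers its means were 49924 against 58721 CPM. Mean levels of Apoa1 and Tat were higher on HFD in het-labelled livers, and those of Ttr and Tat in wild-type livers. The other markers had lower means, and median log2 differences were -0.1 in het-labelled and -0.223 in wild-type livers. Of 9 hepatocyte markers, 0 were called in het-labelled livers and 3 were lower in wild-type livers (0 without library 1, 2 or 5 and 1 without library 6), and none was at 0. Red blood cell markers summed to 888 to 1143 CPM on HFD against 316 to 408 CPM on chow in wild-type livers, with 3 of 4 tested markers higher. In het-labelled livers they summed to 467 to 499 CPM on HFD against 315 to 342 CPM on chow, with 0 of 4 called (median 0.597). Periportal hepatocyte markers had 3 of 10 lower in het-labelled livers (median -0.472) and 5 of 10 lower in wild-type livers (median -0.543), with summed levels of 3250 to 3312 CPM on HFD against 3611 to 3702 CPM on chow in het-labelled livers and of 3285 to 3865 CPM against 4688 to 5033 CPM on chow in wild-type livers. The het-labelled count was 0 without library 3 and 1 without library 7 or 8, and the wild-type count was 1 without library 1 or 5, 2 without library 2 and 3 without library 6. Pericentral markers had 2 of 13 lower and 1 higher in het-labelled livers (median 0.0974) and 4 lower and 1 higher in wild-type livers (median -0.209). The lower count was 1 in het-labelled livers without library 1, 2, 3, 4, 7 or 8 and 2 in wild-type livers without library 1 or 6. The higher count was 0 in het-labelled livers when any library from 1 to 7 was left out, and 0 in wild-type livers without library 1, 2, 5 or 6. Kupffer cell and macrophage markers had 9 of 12 lower in het-labelled livers (median -1.09; 0 to 4 lower without library 1, 2, 3, 4, 5, 6 or 8), at 200.1 to 327 CPM on HFD against 501 to 598 CPM on chow, and 0 called in wild-type livers (median -0.174). Over all tested rows, 1.48% were lower and 1.53% higher on HFD in het-labelled livers (median -0.00606). In wild-type livers 2.22% were lower and 2.37% higher (median 0.0231). The part of the marker shifts in the falls of Cyp2b10 and Cyp3a11 was not tested.

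Cyp2b9 was higher in het-labelled than in wild-type livers on chow. It had 11.8 and 0.853 CPM (220 and 12 counts) in het-labelled livers on HFD and 32.9 and 34.6 CPM (464 and 509 counts) in het-labelled livers on chow. Wild-type livers had 5.02 and 9.95 CPM (87 and 182 counts) on HFD and 0.882 and 0.232 CPM (14 and 4 counts) on chow. The het-labelled chow libraries stood above all others, the wild-type chow libraries were among the lowest, and the 2 het-labelled HFD libraries were far apart. Het-labelled minus wild-type on chow was 5.93 ± 0.98 (SE, log2; 61.1-fold higher; adjusted p = 0.0482 by edgeR), with an interval of 3.70 to 8.17.

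The Cyp2b9 call on chow ended without library 1 (7.14, adjusted p = 0.254), 2 (5.25, 0.355), 3 (5.97, 0.143), 5 (adjusted p = 0.0807) or 6 (0.0819, all by edgeR). Averaged over the diets, the difference was 2.88 ± 0.64 (adjusted p = 0.0497 by edgeR), and that call ended in 7 of the 8 fits that left out a library. On HFD it was -0.17 (adjusted p = 0.947 by edgeR) and ranged from -3.13 to 0.65 over those fits.

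The Cyp2b9 values on HFD lay on opposite sides of chow in the 2 genotypes. HFD minus chow was -2.34 ± 0.68 in het-labelled livers (adjusted p = 0.114) and 3.77 ± 1.10 in wild-type livers (adjusted p = 0.0985, both by edgeR), and neither was called. Without library 7 the het-labelled difference was -5.29 and was called (adjusted p = 0.00538 by edgeR). The wild-type difference was called without library 7 (0.00508) or library 8 (0.00502), and both differences were called without the filter on low counts (0.0254 in het-labelled and 0.0218 in wild-type livers, by edgeR). A fit of the wild-type libraries alone gave 3.75 and called it (adjusted p = 0.00482 by edgeR). A fit of the het-labelled libraries alone gave -2.36, which was not called (adjusted p = 0.233 by edgeR). The difference between the responses was -6.11 ± 1.27 (unadjusted p = 0.00105, adjusted p = 0.58 by edgeR).

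Kupffer cell and macrophage markers moved in the same comparison as Cyp2b9. Their summed level was 501 to 598 CPM in het-labelled livers on chow and 201 to 221 CPM in wild-type livers on chow, and all 12 markers were tested and detected. On chow, 6 were higher and 0 lower in het-labelled livers, beside 0.326% of all rows higher and 0.191% lower, with a median log2 difference of 1.30 against 0.0135 over all tested rows. Among them were C1qa at 1.18 ± 0.14 (adjusted p = 0.0262 by edgeR), a complement gene of resident macrophages, and Clec4f at 1.20 ± 0.17 (adjusted p = 0.0407 by edgeR), a Kupffer cell lectin. Leaving out library 1, 2, 3 or 6 gave 0 such markers, leaving out library 5 gave 1, and leaving out library 7 or 8 gave 10. The markers summed to 200.1 to 327 CPM in het-labelled livers on HFD, and 9 were lower there than on chow; leaving out library 1, 2 or 3 gave 0, library 6 or 8 gave 3, and library 4 or 5 gave 4. Their part in the Cyp2b9 difference was not tested.

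Cyp2b9 was compared with other female-predominant liver genes. Sult2a1, Sult2a2, Sult3a1 and A1bg had at most 2 counts in every library, while Cyp2a4 reached 26.3 CPM, Cyp3a44 19.5 CPM and Cyp3a16 3.53 CPM. Cyp3a44 had 4.44 ± 2.75 CPM in het-labelled livers on HFD, 15.3 ± 2.35 CPM in het-labelled livers on chow, 5.59 ± 1.22 CPM in wild-type livers on HFD and 18.7 ± 1.25 CPM in wild-type livers on chow (SD, n = 2 each). Its means on HFD were below those on chow in both genotypes, as were those of Cyp2a4, Cyp3a16 and the prolactin receptor gene Prlr. Of the 50-base stretches of Cyp3a11, 5.8% occurred in Cyp3a44 and 4.49% in Cyp3a16. Cyp3a11 had 818 CPM or more in every library, and how shared reads were counted was not given. Low Cyp3a44 and Cyp3a16 counts beside it are therefore uncertain. Sequence that Cyp2a4 may share with other Cyp2a genes was not examined. Cyp2b9 had a higher mean on HFD than on chow in wild-type livers, and other genes of the list did too. Cyp17a1 had 8.03 CPM on HFD against 1.89 CPM on chow there (log2 difference 2.07, adjusted p = 0.0157 by edgeR). Acot3 had 2.87 against 1.1 CPM and Abcd2 6.91 against 4.22 CPM in the same livers. Of 11 tested genes of the female-predominant list, which holds Cyp2b9 and Cyp2b13 as well, 1 was higher in het-labelled livers on chow, Cyp2b9 itself. Of 18 tested male-predominant genes, 0 were called in that comparison. Over all tested rows, 0.326% were higher and 0.191% lower there, so a count of 0 does not set the male-predominant list apart. Mup20, a male-predominant urinary protein gene, ranged from 5376 to 8942 CPM over the libraries.

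Cyp2b13 was scarce, with 61 counts in all 8 libraries together, and none of its differences was called by edgeR. It had 0.590 and 0.213 CPM (11 and 3 counts) in het-labelled livers on HFD, 1.63 and 0.544 CPM (23 and 8 counts) in het-labelled livers on chow, 0.0577 and 0.820 CPM (1 and 15 counts) in wild-type livers on HFD and 0 CPM in both wild-type libraries on chow. The highest library was a het-labelled chow library, and the groups other than wild-type chow overlapped. Against a floor of 3 counts per library, 0.181 CPM on average, the mean was at least 5.99-fold higher in het-labelled than in wild-type livers on chow, and at least 2.42-fold higher in wild-type livers on HFD than on chow (adjusted p = 0.154 and 0.224 by edgeR). The bound on HFD rests on library 6, since library 5 had 1 count, under the floor. The bound on chow rests largely on library 3 at 1.63 CPM, while library 4 had 0.544 CPM. Floors and intervals of this kind cover counting error only. The gene passed the filter through het-labelled chow library 3 (23 counts) and wild-type HFD library 6 (15 counts).

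Of the summed counts of the Cyp2b genes in a library, Cyp2b9 took 92.4% of 238 (exact 95% binomial interval 88.3 to 95.5) and 54.5% of 22 (32.2 to 75.6) in het-labelled livers on HFD. It took 55.2% of 841 (51.7 to 58.6) and 62.7% of 812 (59.3 to 66.0) in het-labelled livers on chow. In wild-type livers it took 63.0% of 138 (54.4 to 71.1) and 71.7% of 254 (65.7 to 77.1) on HFD, and 3.69% of 379 (2.03 to 6.12) and 0.971% of 412 (0.265 to 2.47) on chow. Wild-type chow livers thus had nearly pure Cyp2b10 counts, at 96.3% and 99.0%, and the other groups had Cyp2b9 in the majority in every library.

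**Figure D2:**
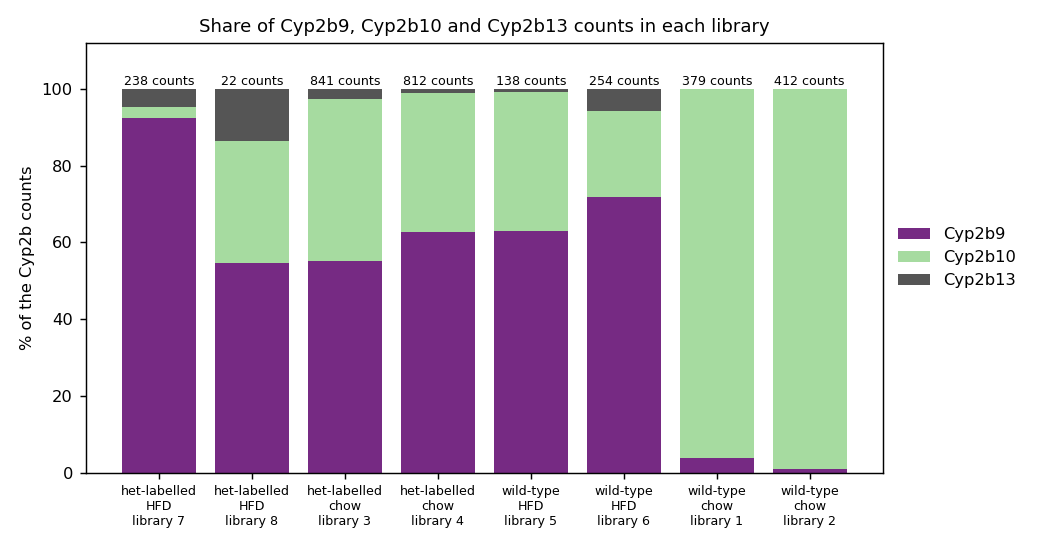
Percent of the summed Cyp2b9, Cyp2b10 and Cyp2b13 counts (vertical axis) taken by each gene in each of the 8 libraries, with the summed count above each bar. Cyp2b10 takes 96.3% and 99.0% in the wild-type chow libraries and between 2.94% and 42.1% in the other libraries.

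These Cyp2b genes are similar enough for reads to be shared. The longest transcripts of Cyp2b9 and Cyp2b13 were 89.2% identical, those of Cyp2b9 and Cyp2b10 84.4% and those of Cyp2b13 and Cyp2b10 83.9%. Of the 50-base stretches of Cyp2b13, 10.8% also occurred in Cyp2b9 and 8.0% in Cyp2b10, while 8.57% of those of Cyp2b10 and 10.8% of those of Cyp2b9 occurred in any other Cyp2b gene. How reads with several matches were counted was not given in the sources used here, so small Cyp2b13 counts beside many Cyp2b9 counts are uncertain. In wild-type chow livers, Cyp2b13 had 0 counts beside 365 and 408 Cyp2b10 counts. Of the 50-base stretches of Cyp3a11, 14.8% occurred in other Cyp3a genes.

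No difference of Por was called by edgeR with all libraries and groups. It had 138 and 124 CPM in het-labelled livers on HFD, 119.6 and 135 CPM in het-labelled livers on chow, 106 and 87.7 CPM in wild-type livers on HFD and 121 and 146 CPM in wild-type livers on chow. The wild-type HFD libraries lay below the other 6. HFD minus chow was 0.04 in het-labelled livers (interval -0.25 to 0.34, adjusted p = 0.908 by edgeR) and -0.47 ± 0.13 in wild-type livers (interval -0.76 to -0.17, adjusted p = 0.0854 by edgeR). The wild-type difference passed with DESeq2 (0.0305), without the filter on low counts (0.0408 by edgeR) and in a fit of the wild-type libraries alone (0.0384 by edgeR). Het-labelled minus wild-type was 0.43 on HFD (adjusted p = 0.194) and -0.07 on chow (adjusted p = 0.837, both by edgeR).

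Per length, as CPM per kilobase of GRCm38 exons, Cyp3a11 had the highest level of the 7 genes in every group, at means of 567 ± 308 in het-labelled livers on HFD, 1737 ± 103 in het-labelled livers on chow, 718 ± 117 in wild-type livers on HFD and 2221 ± 137 in wild-type livers on chow (SD, n = 2 each). Por followed, with 48.0 ± 3.53, 46.6 ± 3.95, 35.5 ± 4.73 and 49.0 ± 6.50 CPM per kilobase in the same order of groups. The receptors had lower levels than Por, with Nr1i3 at 22.9 ± 4.67 and Nr1i2 at 17.4 ± 2.11 in het-labelled livers on chow, and with Nr1i3 at 30.02 ± 3.21 and Nr1i2 at 27.4 ± 1.37 in wild-type livers on chow. In wild-type livers on HFD the receptors had 23.9 ± 0.815 for Nr1i3 and 27.5 ± 3.83 for Nr1i2, and in het-labelled livers on HFD 23.1 ± 10.3 and 21.9 ± 2.48 CPM per kilobase. Their libraries overlapped in het-labelled livers on HFD and in wild-type livers on chow. Nr1i3 was the higher in both het-labelled chow libraries. In both wild-type HFD libraries Nr1i2 was the higher, at 24.8 and 30.2 against 24.5 and 23.3 CPM per kilobase. There the gap between the means was smaller than the SD of Nr1i2. The order of Cyp2b9 and Cyp2b10 differed by group. Cyp2b9 stood at 18.0 ± 0.66 and Cyp2b10 at 11.6 ± 1.83 CPM per kilobase in het-labelled livers on chow, where the Cyp2b9 level overlapped that of Nr1i2. In wild-type livers on chow Cyp2b9 stood at 0.297 ± 0.245 and Cyp2b10 at 12.0 ± 0.239 CPM per kilobase.

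Counted over the 7 genes, 2 were lower and 0 higher on HFD in het-labelled livers, where 1.48% of all tested rows were lower and 1.53% higher. In wild-type livers 2 were lower and 0 higher, where 2.22% of all rows were lower and 2.37% higher. In both genotypes these were Cyp2b10 and Cyp3a11. Against wild-type livers, het-labelled livers had 1 of the 7 lower on HFD, Cyp2b10, where 0.349% of all rows were lower and 0.0953% higher. On chow they had 1 higher, Cyp2b9, where 0.326% of all rows were higher and 0.191% lower. Averaged over the diets, het-labelled livers had Cyp2b10 and Nr1i2 lower, beside 2.03% of all rows, and Cyp2b9 higher, beside 1.21%. No row of the whole table was called for a difference between the diet responses by edgeR (0%), while 900 rows had an unadjusted p under 0.05 and DESeq2 called 29. The diet and genotype comparisons share groups, so their values are not independent of each other.

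**Figure D3:**
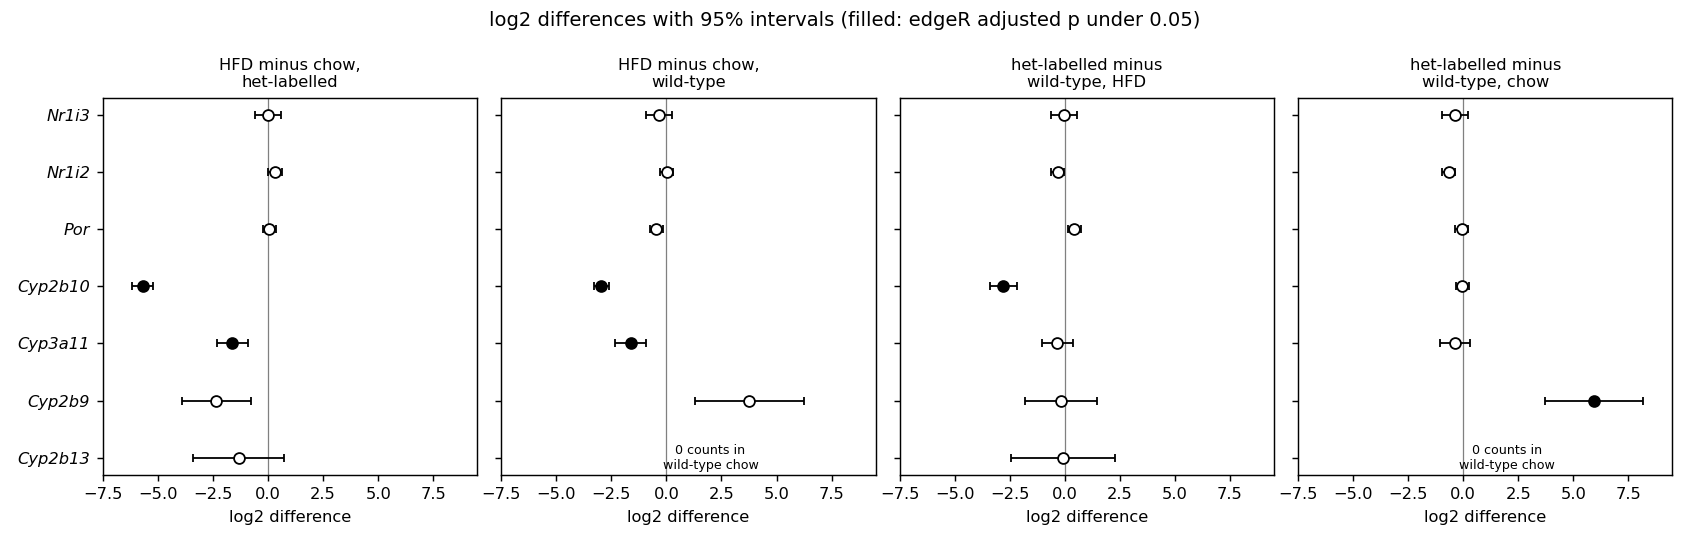
Log2 differences (horizontal axes) of the 7 genes in 4 comparisons, with bars for unadjusted 95% intervals and filled points where the adjusted p of edgeR was under 0.05; Cyp2b13 is not drawn against wild-type chow libraries, which had 0 counts. Cyp2b10 lies at -5.69 on HFD in het-labelled livers and at -2.95 in wild-type livers, and at -0.05 between the genotypes on chow.

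Of the other phase I targets of CAR or PXR, 15 of 24 tested genes were lower on HFD. In this comparison, averaged over the genotypes, 1 gene was higher, beside 4.84% of all rows lower and 5.56% higher, with a median log2 difference of -0.584 against 0.00733 over all rows. Periportal hepatocyte markers had 7 of 10 lower, 0 higher and a median of -0.509 in the same comparison (4 lower without library 2). The higher phase I gene was no longer called without library 1, 2, 4, 6 or 7. Cyp2c55, a P450 gene inducible through these receptors, had 2.30 ± 0.369 CPM in het-labelled livers on HFD, 12.9 ± 0.464 CPM in het-labelled livers on chow, 4.02 ± 0.272 CPM in wild-type livers on HFD and 20.8 ± 3.65 CPM in wild-type livers on chow (SD, n = 2 each). Its averaged diet difference was -2.43 (adjusted p = 2.81e-05 by edgeR). Cyp1a2, a caffeine-metabolising P450, fell by 1.11, the carboxylesterase Ces2a fell by 0.81 and the P450 Cyp2c29 fell by 0.84 on the same scale (adjusted p of 6.43e-05, 0.000607 and 0.000864 by edgeR).

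Within the genotypes, 7 of these phase I genes were lower on HFD in het-labelled livers (median -0.575) and 11 in wild-type livers (median -0.683), beside 1.48% and 2.22% of all rows lower, and 0 were higher in either. The het-labelled count was 4 without library 1, 3 without library 2, 3 without library 3, 4 without library 4 and 11 without library 7. The wild-type count was 3 without library 1, 6 without library 2, 5 without library 5 and 6 without library 6. Neither genotype comparison within a diet called a gene of this list. Averaged over the diets, 1 of 24 tested was lower and 0 higher in het-labelled livers, beside 2.03% and 1.21% of all rows. It was Cyp2c55, at -0.76 ± 0.13 (SE, log2, adjusted p = 0.0248 by edgeR).

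Conjugating enzymes of phase II fell as well. Averaged over the genotypes, 12 of 20 tested were lower on HFD and 0 higher (median -0.588), beside 4.84% of all rows lower and 5.56% higher. Gsta2, a glutathione S-transferase, had 5.79 ± 0.367 CPM in het-labelled livers on HFD, 18.5 ± 2.01 CPM in het-labelled livers on chow, 7.34 ± 0.911 CPM in wild-type livers on HFD and 33.6 ± 1.74 CPM in wild-type livers on chow (SD, n = 2 each), with an averaged difference of -1.93 (adjusted p = 2.43e-05 by edgeR). Further glutathione S-transferases were Gsta4, which fell by 1.14, Gstm1, which fell by 1.26, and Gstm3, which fell by 2.14 (adjusted p of 6.43e-05, 0.000213 and 0.000263 by edgeR). Lower genes numbered 9 in het-labelled livers, beside 1.48% of all rows, and 9 in wild-type livers, beside 2.22%, and the wild-type count was 5 without library 2, 5 or 6. Between the genotypes, Gstp1 passed in het-labelled livers on HFD (0.77, adjusted p = 0.0473) and Gsta2 passed on chow (-0.86, adjusted p = 0.0407, both by edgeR). The Gstp1 call ended without library 1, 2, 5, 6 or 8, and the Gsta2 call without library 1, 2, 3, 5 or 6.

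Of 9 transporters known as targets, 5 were lower and 1 was higher on HFD averaged over the genotypes, beside 4.84% and 5.56% of all rows, and their median was -0.295. The efflux pumps Abcc4 and Abcc3 fell by 1.83 and 0.64 and the uptake carrier Slco1a4 fell by 1.67, while the uptake carrier Slco2b1 rose by 0.39 (adjusted p of 0.00385, 0.0257, 0.00536 and 0.00422 by edgeR). Leaving out library 1, 2, 5 or 6 gave a lower count of 2 and ended the call of Abcc3, and leaving out library 7 gave 3.

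**Figure D4:**
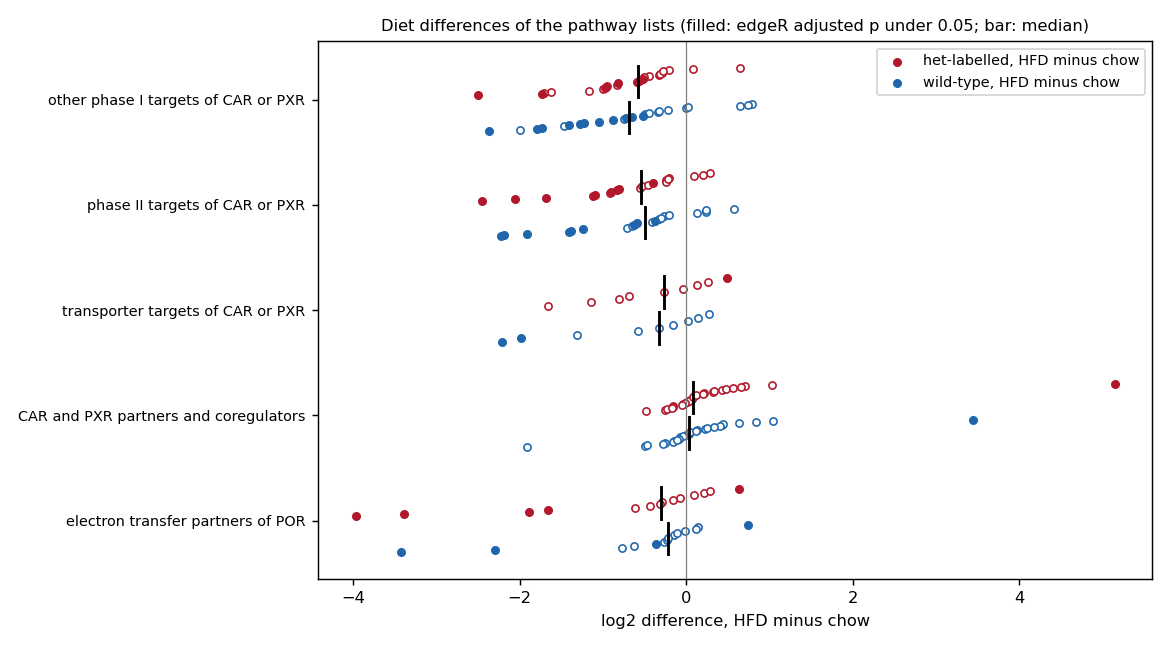
Log2 difference of HFD minus chow (horizontal axis) for each tested gene of 5 lists, het-labelled above wild-type in each list; filled points passed edgeR's adjusted p under 0.05 and black bars are list medians. The medians of the phase I list lie at -0.575 in het-labelled and -0.683 in wild-type livers, and those of partners and coregulators at 0.0881 and 0.0395.

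The partners and coregulators of CAR and PXR did not move down with the targets. Of 27 tested, 6 were higher and 0 lower on HFD averaged over the genotypes (median 0.0653), beside 5.56% of all rows higher and 4.84% lower, and leaving out library 1, 2, 4 or 5 gave 2 higher and leaving out library 6 gave 3, while leaving out library 4 or 8 gave 2 lower. Dbp, a clock-controlled transcription factor whose level swings over the day, rose by 4.30 (adjusted p = 0.00241 by edgeR). Dbp had 16.4 and 11.0 CPM in het-labelled livers on HFD, 0.354 and 0.408 CPM in het-labelled livers on chow, 13.1 and 2.90 CPM in wild-type livers on HFD and 0.504 and 0.928 CPM in wild-type livers on chow. All HFD libraries were above all chow libraries; the labels used here give no time of collection, and its part in the P450 differences was not tested. Cebpa, a transcription factor of hepatocytes, rose by 0.46 (adjusted p = 0.00702), and the chaperone genes Hsp90ab1 and Hsp90aa1, which belong to the complex that holds CAR, rose by 0.41 and 0.83 (0.0238 and 0.0268, all by edgeR). The call of Hsp90ab1 ended without library 1, 2, 4 or 5 and that of Hsp90aa1 without library 1, 2, 4, 5 or 6.

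Among 14 tested partners in electron transfer with POR, 6 were lower and 1 was higher on HFD averaged over the genotypes (median -0.278), beside 4.84% and 5.56% of all rows, and the lower count was 3 without library 1 or 6. The sterol synthesis enzymes Sqle and Cyp51, both fed by POR, fell by 3.70 and 2.09 (adjusted p of 0.000328 and 0.00193 by edgeR). Of the haem-binding membrane proteins, Pgrmc1 fell by 0.34 and Pgrmc2 rose by 0.69 (adjusted p of 0.0102 and 0.000889 by edgeR).

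Genes outside drug metabolism that respond to CAR or PXR were called in both directions. Of 16 tested, 6 were higher and 1 was lower on HFD averaged over the genotypes (median 0.40), beside 5.56% of all rows higher and 4.84% lower, and the lower count was 2 without library 8. The lipid genes Pnpla3 and Thrsp rose by 5.32 and 2.75 and the stress gene Gadd45a rose by 2.09 (adjusted p of 0.000328, 0.00105 and 0.00201 by edgeR). The merged row that holds the noncoding RNA Meg3 fell by 3.36 (adjusted p = 0.00084 by edgeR). In the Cyp2 gene cluster of chromosome 7, where RefSeq places Cyp2b10, Cyp2b13 and Cyp2b9 in that order, 6 of 10 listed neighbours were tested and 3 were lower on the averaged diet contrast, beside 4.84% of all rows. Cyp2a4 and Cyp2a5 fell by 1.14 and 1.09 and Cyp2f2 fell by 0.31 (adjusted p of 0.0118, 0.0119 and 0.0364 by edgeR). Cyp2a4 ranged from 5.83 to 26.3 CPM over the libraries, beside 119.6 to 517 CPM of Cyp2a5. Their sequences were not compared, so reads shared between them cannot be told from separate falls. Cyp2a4 and Cyp2a5 were also counted among the phase I targets above, and Cyp2f2 among the periportal markers. The call of Cyp2a5 ended without library 6 and that of Cyp2f2 without library 1, 2, 3, 5 or 7.

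The genes most like Cyp2b10 over the 8 libraries, by Pearson's r of log2(CPM + 1) among tested rows of at least 1 CPM on average and other than the 7 genes, were Camkk2 (r = 0.995), Ugdh (0.987), Ngfr (0.986), Uhrf1bp1l (0.983) and Creg1 (0.977). The r of Cyp2b10 with Cyp3a11 was 0.92, with Nr1i3 0.30 and with Nr1i2 -0.146. Ugdh, which makes the sugar donor of glucuronidation, had 96.7 and 102 CPM in het-labelled livers on HFD, 199 and 197 CPM in het-labelled livers on chow, 133 and 123 CPM in wild-type livers on HFD and 197 and 229 CPM in wild-type livers on chow. Its HFD libraries lay below its chow libraries, and its het-labelled HFD libraries below its wild-type HFD libraries.

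For Cyp2b9, similar rows by the same measure were Wdr20a (r = 0.995), Ralgapa2 (0.967), Wrb (0.945) and Thumpd2 (0.943), while its r was 0.825 with Cyp2b13 and 0.084 with Cyp2b10. These rows varied far less than Cyp2b9: Wdr20a ranged from 11.7 to 14.7 CPM over all libraries. The 8 points of each r share the same libraries and fall into the 4 groups, and r describes these libraries only.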

How the data were processed

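The authors deposited whole-number read counts per gene, not normalized, for 8 liver libraries in 4 groups of 2, taken from the titles. The submitters' processing notes name CASAVA, TopHat2, HTSeq, DESeq and the build mm9; the sources used here give no version, setting or role, and neither strand nor the handling of reads with several matches. Counts were tested with edgeR 4.0.16 in R 4.3.3 (TMM factors, filterByExpr, quasi-likelihood test, 1 fit of 4 group means), adjusted by Benjamini-Hochberg over 12593 rows and called under 0.05. SEs were worked back from the fold change and F. CPM used TMM-scaled library sizes. The code was tested on simulated data. Alternatives were RLE and upper-quartile factors, no filter, no major urinary protein row, DESeq2 1.42.0, fits of 2 groups and each library left out; list counts under them were added after seeing the data. Members and lists were chosen with earlier results of these data known. Some genes are in more than 1 list, such as Cyp1a2 in the phase I and pericentral lists, so list counts are not independent of each other. Named from each list were up to 4 called genes with the smallest adjusted p in the comparison described. The 2 libraries of each group differed beyond counting noise (chi-square over its degrees of freedom: 15.8 to 17.3). Transcripts and exon lengths came from GENCODE annotation of GRCm38, and promoters from RefSeq, which matched all 7 genes. Some genes that these rules select are not reported here.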

Additional observations from a re-analysis of the deposited data

Results flagged for a closer look

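The diet response of Cyp2b9 differed between the genotypes in direction: both het-labelled HFD libraries lay below both het-labelled chow libraries, and both wild-type HFD libraries lay above both wild-type chow libraries. The difference of the responses was -6.11 on the log2 scale (unadjusted p = 0.00105, adjusted p = 0.58 by edgeR, 0.12 by DESeq2). Without library 7 it was -9.06 and passed (adjusted p = 0.00409 by edgeR).

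The diet response of Cyp2b10 was deeper in het-labelled than in wild-type livers, by -2.74 on the log2 scale (adjusted p = 0.0963 by edgeR, 0.000132 by DESeq2). The het-labelled HFD level behind it rests on 7 counts in each library. No cause of either difference was tested.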

How the results depend on the processing

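Each library was left out in turn, and the other settings were tried 1 at a time. Under the other settings, 250 differences of the 7 genes kept their direction and side of the threshold, 12 came to pass it, 1 no longer passed and 6 changed sign; with a library left out these numbers were 334, 8, 26 and 24. No sign change involved a call. Of the 6, Nr1i2 on the wild-type diet (0.01) was -0.01 with RLE factors, -0.02 with upper-quartile factors, -0.01 without the filter, -0.01 with DESeq2 and -0.02 in the fit of 2 groups, and Nr1i3 on the het-labelled diet was -0.01 with upper-quartile factors. The causes were not tested. The lone library of a reduced group is assumed to vary like the others. Fits of 2 groups gave 1321 calls for diet in wild-type livers (578 with all groups), 109 for diet in het-labelled livers (380) and 25 for genotype on HFD (56), and log2 differences of -0.35 for Nr1i3, 3.75 for Cyp2b9 and -0.49 for Por on the wild-type diet and -1.62 for Cyp3a11 on the het-labelled diet. Without the filter on low counts, calls numbered 680 for diet in het-labelled livers, 258 for genotype on HFD, 314 for genotype on chow (65), 8 for the interaction (0) and 760 for averaged genotype (408); Cyp2b9 was 3.75 on the wild-type and -2.35 on the het-labelled diet, Por -0.48, Nr1i2 on chow -0.67 and the Cyp2b10 interaction -2.72. DESeq2 called 241 for genotype on HFD, 227 for genotype on chow and 29 for the interaction, with Por at -0.48, Nr1i2 on chow at -0.67, the Cyp2b10 interaction at -2.74 and Cyp2b13 by averaged genotype at 3.24. With a library left out, calls ranged from 97 to 898 for diet in wild-type livers, 142 to 292 for diet in het-labelled livers, 12 to 180 for genotype on HFD, 1 to 280 for genotype on chow, 0 to 14 for the interaction, 540 to 1409 for averaged diet (1309) and 23 to 757 for averaged genotype. Over the same fits Cyp2b9 ranged from 3.08 to 4.95 (wild-type diet), -5.29 to -1.52 (het-labelled diet), 5.25 to 7.14 (genotype on chow), 1.40 to 3.48 (averaged genotype) and -9.06 to -5.28 (interaction). Cyp3a11 ranged from -1.80 to -1.50 (wild-type diet), -2.32 to -1.15 (het-labelled diet), -1.04 to 0.13 (genotype on HFD) and -0.70 to -0.11 (averaged genotype), Nr1i2 from -0.79 to -0.53 (genotype on chow) and -0.56 to -0.42 (averaged genotype), and the Cyp2b10 interaction from -2.93 to -2.53. The differences that changed sign with a library left out ranged from -0.14 to 0.12 for Nr1i2 on the wild-type diet, -0.54 to 0.40 for Nr1i3 and -0.04 to 0.12 for Por on the het-labelled diet, -0.60 to 0.34 for Nr1i3, -3.13 to 0.65 for Cyp2b9 and -1.04 to 2.72 for Cyp2b13 by genotype on HFD, -0.22 to 0.09 for Cyp2b10 and -0.20 to 0.07 for Por by genotype on chow, -0.21 to 0.73 for Nr1i3 and -0.69 to 0.48 for Cyp3a11 in the interaction, and -0.43 to 0.04 for Nr1i3 and -0.76 to 1.30 for Cyp2b9 by averaged diet. No paired analysis was possible because the library numbers 1 to 8 are shared by no 2 groups. At 2 libraries a group, Cyp2b13 and the lowest Cyp2b10 and Cyp2b9 counts limit the precision.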
